A study of Homo sapiens with 66 samples.

Results

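The IFITM proteins, tetherin (BST2), and the SAM-domain factors SAMHD1, SAMD9, and SAMD9L are host proteins that restrict viruses at different steps of infection. These 7 genes of the 57820 in the gene count tables were taken by their Ensembl gene identifiers, and all of them passed the filter on low counts in both RNA-seq studies of the series. The restriction factors were followed in THP-1, a human monocytic leukemia cell line, after loss of the dsRNA-editing enzyme ADAR, of the RNA-binding protein hnRNPC, or of both. Study 1 used total RNA of a single STING-deficient clone with a Cas9 transgene, in 16 groups of 3 replicates. Nontarget gRNA (CTRL) or gRNA against GFP, ADAR, HNRNPC, or ADAR and HNRNPC together was brought in by nucleofection, and RNA was taken 3, 4, and 5 days later. A further group of CTRL cells received IFN-α on day 3 and was harvested on day 4. All cells of study 1 lacked STING and carried Cas9, the controls included, and singly targeted cells received nontarget gRNA in place of the second targeting gRNA. Study 2 used 1 Cas9-transgenic wild-type clone, other gRNAs, and day 4 alone, in 9 groups of 2 replicates. It held total and cytosolic RNA of CTRL cells and of cells with either or both targeted, and nuclear RNA after hnRNPC targeting. Levels of the studies were not compared with a test, since clone and gRNAs differed. In bulk RNA, a change in RNA per cell cannot be told apart from a change in the share of cells that express a gene.

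IFITM1, IFITM2, and IFITM3 are small membrane proteins that hinder the fusion of enveloped viruses with host membranes, IFITM1 mostly at the cell surface and IFITM3 in endosomes. BST2 encodes tetherin, which holds budding virions at the surface of the infected cell. SAMHD1 degrades deoxynucleotides (dNTPs) in myeloid and resting cells and so starves reverse transcription, while SAMD9 and its paralog SAMD9L limit the protein synthesis that poxviruses need. Type I IFN acts through its receptor on the transcription factor ISGF3, which binds an IFN-stimulated response element (ISRE) near the start of many of these genes.

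The promoters are shown because 4 of these genes carry an ISRE core close to their start and all 4 rose with IFN-α. In a RefSeq table on GRCh37, 6 of the 7 genes had a window of 250 bases before to 50 bases after the start. The ISRE core was searched as GAAANNGAAA on both strands, where N is any base, and overlapping matches were counted separately. It was found in 4 of 6 windows, of IFITM1, IFITM3, BST2, and SAMD9, and in 3.57% of all 35116 windows of this length. The 60-base stretches below read 5′ to 3′ on the strand of the gene, with the bases of each match that lies wholly inside the stretch in capitals. They lie at chr11:313975-314034 (IFITM1, plus strand), chr11:320870-320929 (IFITM3, minus strand), chr19:17516532-17516591 (BST2, minus strand), and chr7:92747394-92747453 (SAMD9, minus strand) of GRCh37, before the RefSeq start of each gene.
IFITM1: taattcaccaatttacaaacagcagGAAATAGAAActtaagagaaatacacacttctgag
IFITM3: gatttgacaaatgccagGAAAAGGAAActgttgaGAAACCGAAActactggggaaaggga
BST2: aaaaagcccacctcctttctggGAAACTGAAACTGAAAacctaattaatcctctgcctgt
SAMD9: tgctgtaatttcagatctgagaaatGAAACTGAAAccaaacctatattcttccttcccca
The first base of the core lay 40 bases before the start in IFITM1, 52 and 35 bases before it in IFITM3, and 136 bases before it in SAMD9. IFITM1 held a further match that began 6 bases before the start and ran across it, of which the stretch holds no more than the first base, in lower case. In BST2 the matches at 130 and 124 bases before the start overlapped, sharing 4 bases. The gamma-activated sequence TTCNNNGAA was present in the windows of IFITM1 and BST2 and in 7.66% of all windows. The windows of SAMHD1 and SAMD9L held neither run of letters, and SAMD9L rose with IFN-α as well. Of the 6 genes with a window, SAMHD1 alone did not reach the threshold with IFN-α. Whether these runs of letters bear on the response was not tested.

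Of the 7 genes, BST2 and SAMHD1 were the most abundant per exon length in CTRL cells, and IFITM1 was the least. This order depends on the annotated exon lengths. On day 4, CTRL cells had 62.5 RPKM of BST2, 53.8 of SAMHD1, 20.1 of IFITM2, 12.3 of SAMD9, 10.8 of IFITM3, 5.39 of SAMD9L, and 3.04 of IFITM1, where RPKM divides CPM, the gene counts scaled to a common library total, by the exon length in kilobases. The neighbours SAMD9 (SD 1.16, n = 3) and IFITM3 (SD 1.30) did not differ beyond their spread. With IFN-α the order became BST2 (258 RPKM), IFITM3 (169), IFITM1 (152), SAMHD1 (77.1), SAMD9L (69.5), SAMD9 (64.5), and IFITM2 (39). On day 5, ADAR+hnRNPC–targeted cells had 163 RPKM of IFITM1, 151 of SAMD9, 130 of BST2, 128 of IFITM3, 80.6 of SAMD9L, 50.2 of SAMHD1, and 28.4 of IFITM2. IFITM1 thus went from the last place to a group of 4 genes whose libraries overlapped on day 5 (128 to 204 RPKM for IFITM1, 127 to 177 for SAMD9, 126 to 137 for BST2, and 100.2 to 162 for IFITM3). SAMHD1 and IFITM2, 2 of the 3 most abundant genes per length in CTRL cells, took the last places by this measure. By CPM, which does not divide by length, SAMHD1 was the highest of the 7 in CTRL cells of day 4 (583, beside 68.8 for BST2). On day 5 of combined targeting it had 544 CPM, below SAMD9 (1034) and SAMD9L (644). A range was taken over the 39 libraries outside of the IFN-α group and of the ADAR+hnRNPC group on days 4 and 5. In these, the highest normalized count of each gene was 1.65 (BST2) to 3.08 (IFITM1) times the lowest. IFITM1 ranged from 3.28 to 10.1 CPM, and BST2 from 54.3 to 89.6 CPM.

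**Figure D1:**
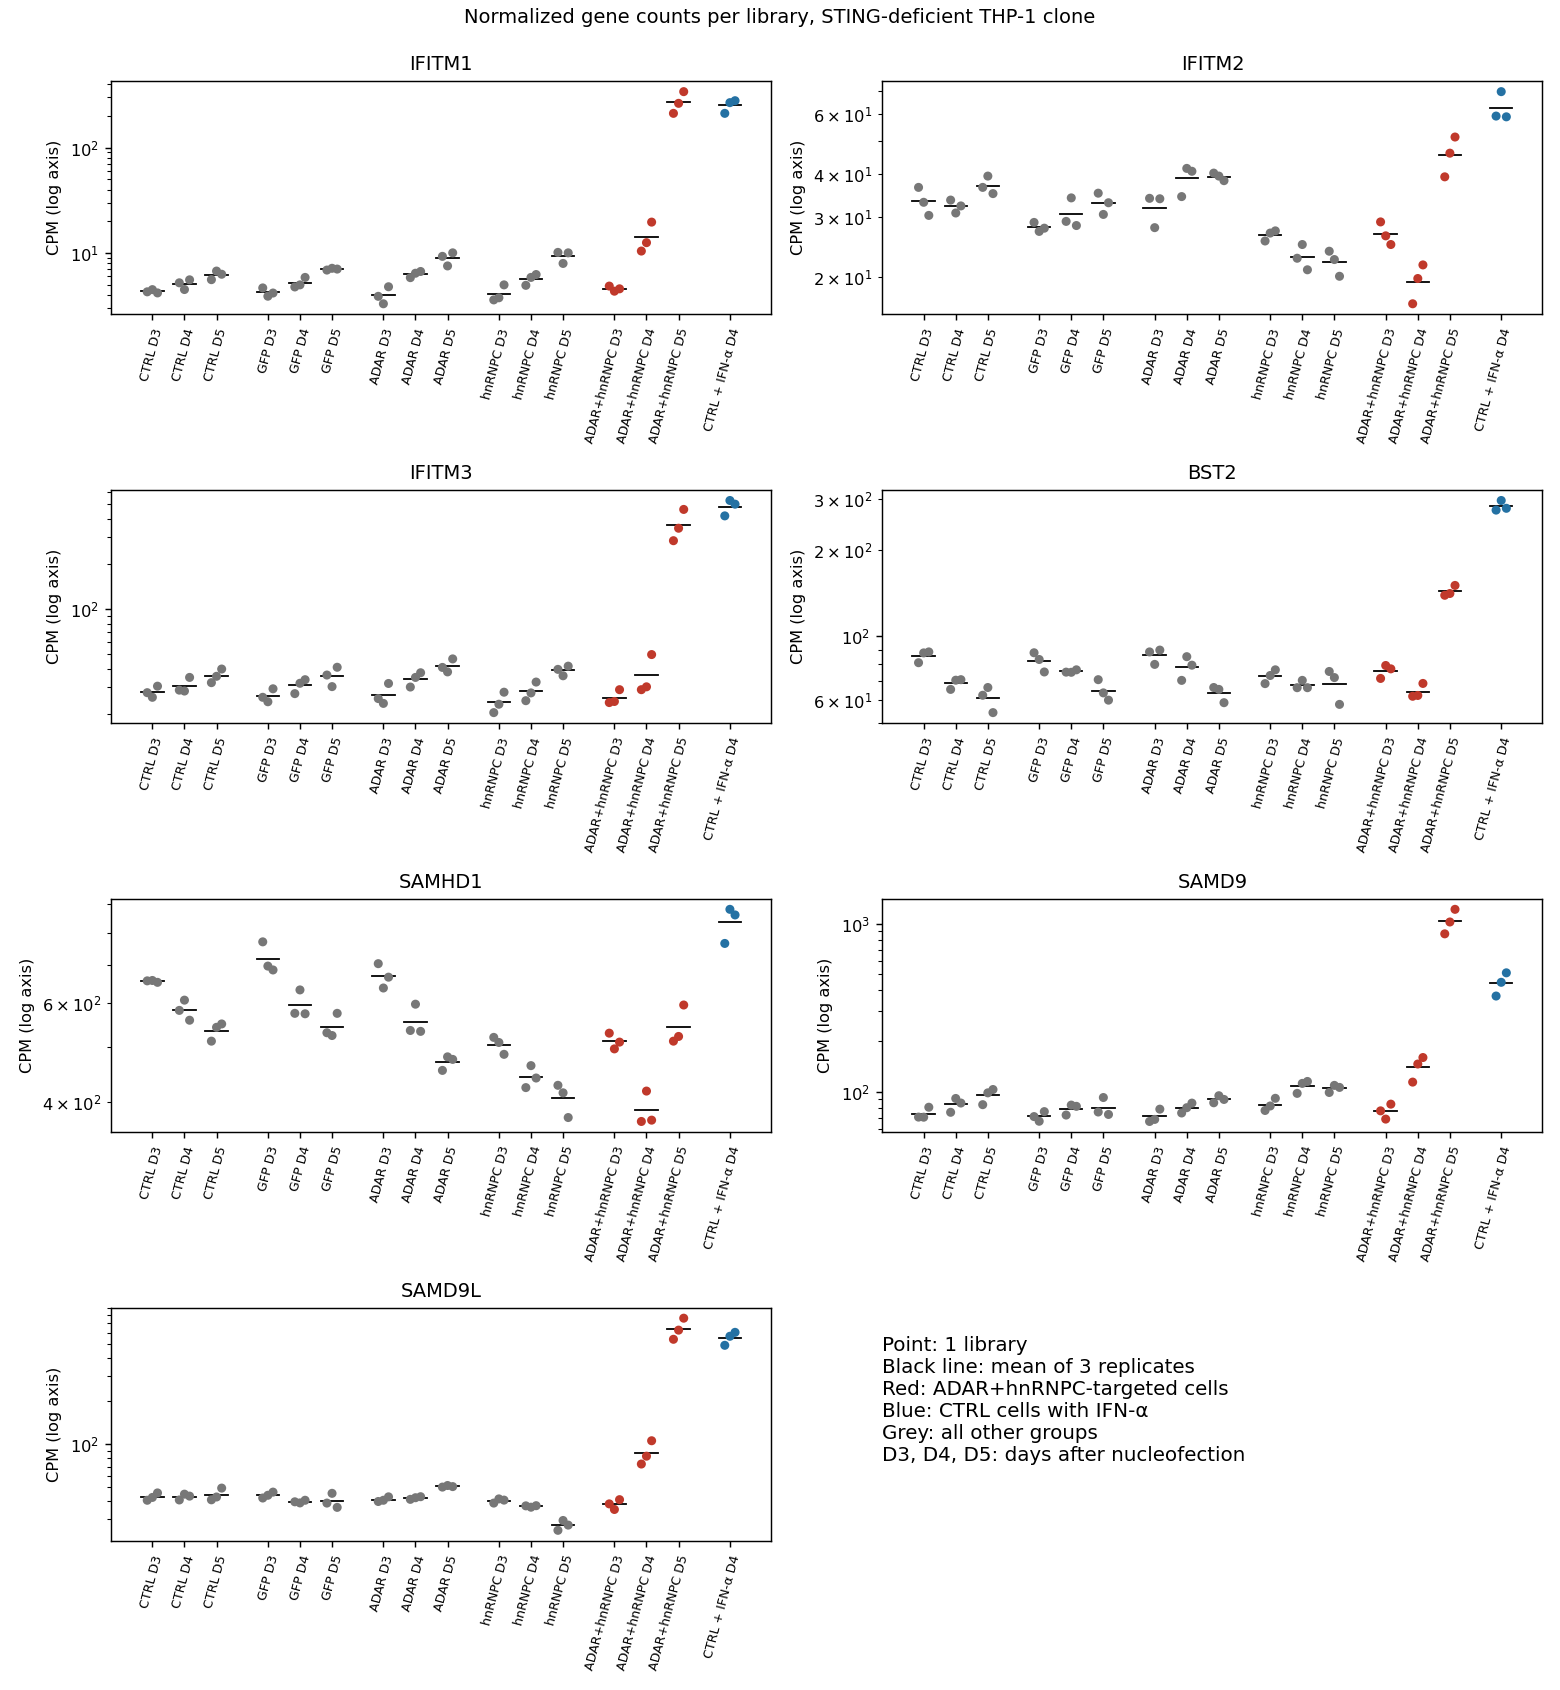
Normalized counts (CPM, log axis) of the 7 genes in each of the 48 libraries of the STING-deficient clone, by group and day after nucleofection, with a black line at the mean of 3 replicates. IFITM1, IFITM3, SAMD9, and SAMD9L lie above all other groups in ADAR+hnRNPC–targeted cells of day 5 (red) and in IFN-α–treated CTRL cells (blue), while SAMHD1 stays between 369 and 881 CPM in all libraries (axes differ between panels).

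The gRNAs changed the targeted transcripts to different extents. HNRNPC was 832 ± 31.5 CPM (SD, n = 3) in CTRL cells of day 5 and 317 ± 5.77 CPM in hnRNPC-targeted cells, a log2 fold change of −1.39. ADAR mRNA was 394 ± 26.4 CPM in CTRL and 386 ± 12 CPM in ADAR-targeted cells, so the mRNA did not show the targeting of ADAR in study 1. The paper reports successful targeting of ADAR by Western blot in separate experiments. Over all editing sites used, 1.52 to 1.59% of reads were edited in ADAR-targeted cells of day 5, beside 3.54 to 3.86% in CTRL. ADAR is itself IFN-inducible and was 1322 ± 174 CPM in ADAR+hnRNPC–targeted cells of day 5. Gene counts per library ranged from 95107690 to 152829008 in study 1 and from 49666958 to 73873756 in study 2. In study 1, myeloid transcripts such as SPI1 (42.3 to 70.8 CPM) and CD33 (47.6 to 73.2 CPM) were present in all libraries, whereas CD14 reached no more than 3.93 CPM. The 10 markers of other lineages with a symbol in the tables summed to between 2.27 and 6.95 CPM. Their highest sums, 5.32 to 6.95 CPM, were in hnRNPC-targeted cells of day 5, and their part in the results was not tested. In study 2, the same 10 markers summed to 4.16 to 17.3 CPM, of which NCAM1 was 1.55 to 12.3 CPM.

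Treatment with IFN-α tested which of the 7 genes respond to the cytokine in these cells. IFITM1, IFITM3, SAMD9L, SAMD9, and BST2 rose (5 of 7 genes, against 1.21% of the 13187 genes tested), while IFITM2 and SAMHD1 stayed under the fold threshold of 1 on the log2 scale. Genes were called in edgeR's quasi-likelihood test at an adjusted p of at most 0.05 (Benjamini-Hochberg over all genes tested) where the log2 fold change also reached 1 in either direction. IFITM1 was 5.19, 4.48, and 5.54 CPM in the 3 CTRL libraries of day 4 and 212, 268, and 280 CPM with IFN-α. Its log2 fold change of 5.64 ± 0.19 (SE, n = 3 per group, adjusted p = 3.57e-24), or 50.0-fold, was the largest of the 7. IFITM3 went from 28.8, 28.4, and 35 CPM to 417, 528, and 499 CPM (log2 fold change 3.97 ± 0.18). SAMD9L went from 40.9, 44.9, and 43.5 CPM to 492, 569, and 606 CPM (log2 fold change 3.69 ± 0.11). Treated and untreated libraries of these 3 genes did not overlap. SAMD9 rose from 75.4, 91.1, and 85.6 CPM to 370, 447, and 509 CPM, and its log2 fold change of 2.40 ± 0.12 was smaller than that of its paralog. BST2 rose from 65.4, 70.4, and 70.7 CPM to 275, 297, and 279 CPM (log2 fold change 2.04 ± 0.08). IFITM2 was 33.6, 30.8, and 32.3 CPM in CTRL and 59.2, 69.8, and 58.9 CPM with IFN-α. Its groups did not overlap either, and its log2 fold change of 0.96 ± 0.10 (adjusted p = 1.07e-09) lay just under the threshold. SAMHD1 was 582, 607, and 559 CPM in CTRL and 766, 881, and 861 CPM with IFN-α, a log2 fold change of 0.52 ± 0.06 (adjusted p = 7.13e-08). The median log2 fold change of the 7 genes was 2.40, beside 0.02 for all genes tested.

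The targeting of ADAR and hnRNPC together was compared with CTRL on each day to follow the onset of the response. None of the 7 genes was called on day 3 (0.864% of all genes tested were called higher). On day 4, IFITM1 and SAMD9L rose (2 of 7, against 3.40% called higher and 1.29% called lower of all genes), and on day 5 IFITM1, SAMD9L, SAMD9, IFITM3, and BST2 did (5 of 7, against 9.38% called higher and 6.23% called lower). These were the 5 genes that rose with IFN-α. IFITM1 was 10.4, 12.5, and 19.6 CPM in the 3 libraries of day 4, which all exceeded the CTRL libraries (log2 fold change 1.48 ± 0.17). On day 5, it was 212, 264, and 341 CPM beside 5.56, 6.71, and 6.26 CPM in CTRL (log2 fold change 5.46 ± 0.19, 44.1-fold, adjusted p = 1.67e-24). The first and the last of these values lay a day apart, with most of the increase after day 4. SAMD9L was 72.9, 82.7, and 106 CPM on day 4 (log2 fold change 1.02 ± 0.10) and 542, 628, and 761 CPM on day 5, beside 41, 42.9, and 49.5 CPM in CTRL of day 5 (log2 fold change 3.86 ± 0.11). SAMD9 was 114, 146, and 160 CPM on day 4, which also exceeded CTRL, with a log2 fold change of 0.73 ± 0.12 under the threshold. It was 868, 1021, and 1214 CPM on day 5, beside 83.7, 98.4, and 103 CPM in CTRL (log2 fold change 3.44 ± 0.13). Both SAM-domain paralogs were therefore high in every library of day 5. IFITM3 had overlapping groups on day 4, with 29, 30.3, and 49.7 CPM beside 28.8, 28.4, and 35 CPM in CTRL (log2 fold change 0.24 ± 0.17, adjusted p = 0.218). On day 5 it was 285, 345, and 460 CPM beside 32.3, 35.6, and 39.8 CPM (log2 fold change 3.34 ± 0.18). BST2 likewise was 61.9, 62.3, and 68.6 CPM on day 4 (log2 fold change −0.10 ± 0.08) and 139, 141, and 150 CPM on day 5, beside 62.4, 66.4, and 54.3 CPM in CTRL (log2 fold change 1.23 ± 0.08). IFITM1 and SAMD9L thus passed the threshold a day before IFITM3, SAMD9, and BST2.

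The library of replicate 3 had the highest IFITM1, IFITM3, SAMD9, and SAMD9L values of the ADAR+hnRNPC group on day 4 and again on day 5. Without that library of day 4, the log2 fold change of SAMD9L against CTRL was 0.85 and no longer called. The same held without replicate 1 of CTRL on day 4 (log2 fold change 0.98).

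IFITM2 and SAMHD1 had lower values in ADAR+hnRNPC–targeted than in CTRL cells on day 4 and were not called in either direction. IFITM2 was 16.7, 19.8, and 21.7 CPM on day 4 (log2 fold change −0.73 ± 0.10, adjusted p = 8.74e-08) and 39.3, 46.1, and 51.4 CPM on day 5 (log2 fold change 0.30 ± 0.10). SAMHD1 was 369, 418, and 371 CPM on day 4 (log2 fold change −0.59 ± 0.06, adjusted p = 6.52e-10) and 513, 523, and 595 CPM on day 5, beside 513, 543, and 550 CPM in CTRL. On day 5 its log2 fold change was 0.02, with a 95% confidence interval from −0.10 to 0.15.

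**Figure D2:**
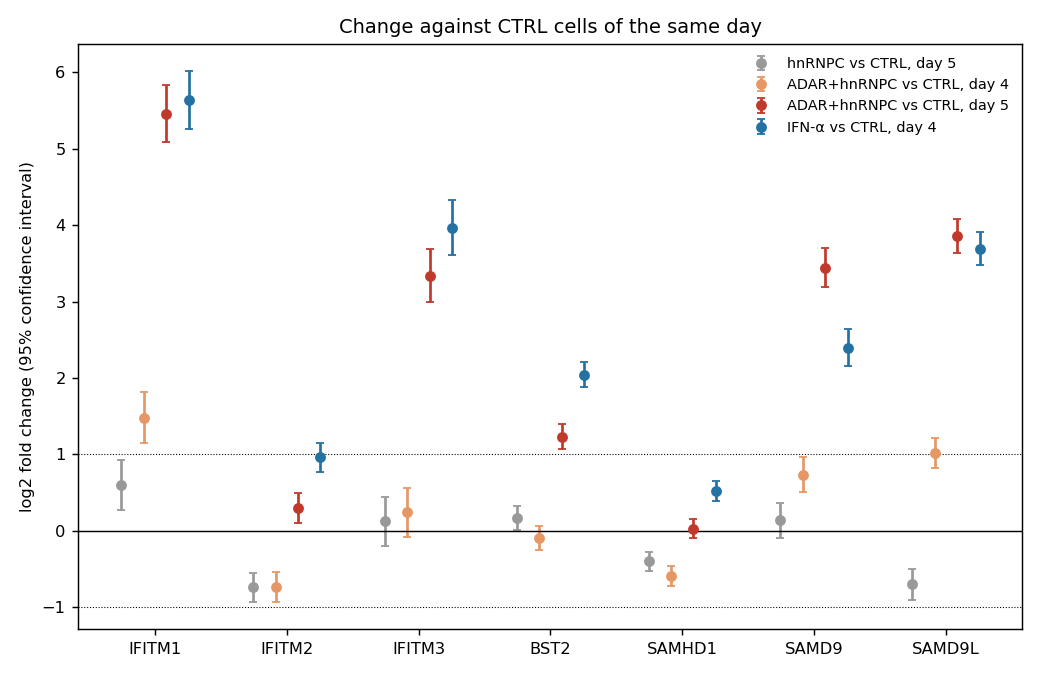
Log2 fold changes against CTRL cells of the same day (points) with 95% confidence intervals (bars) for the 7 genes, with dotted lines at −1 and 1. The 4 colors stand for hnRNPC targeting on day 5, ADAR+hnRNPC targeting on days 4 and 5, and IFN-α; IFITM1 reaches 5.46 with ADAR+hnRNPC targeting on day 5 and 5.64 with IFN-α, and SAMHD1 0.02 and 0.52.

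Cells targeted for 1 gene were compared with CTRL to see whether either loss changed the restriction factors. None of the 7 genes was called in ADAR-, hnRNPC-, or GFP-targeted cells on any of the 3 days. On day 5, 0.273% of all genes tested were called higher in ADAR-, 3.96% higher and 3.75% lower in hnRNPC-, and 0.190% higher in GFP-targeted cells. IFITM1 had the largest positive values, on day 5 a log2 fold change of 0.53 ± 0.17 after ADAR targeting (adjusted p = 0.0409) and 0.60 ± 0.17 after hnRNPC targeting (adjusted p = 0.00216). Its libraries were 9.26, 7.51, and 10 CPM and 10.1, 7.93, and 10 CPM, and all exceeded the 3 CTRL libraries. After hnRNPC targeting, IFITM2 was 23.8, 22.5, and 20.1 CPM on day 5, beside 36.6, 39.5, and 35.1 CPM in CTRL (log2 fold change −0.74 ± 0.10). SAMD9L was 25.1, 29.4, and 27.3 CPM, also without overlap with CTRL (log2 fold change −0.71 ± 0.10, adjusted p = 1.64e-07). The paralogs SAMD9 and SAMD9L had values of opposite sign in hnRNPC-targeted cells, as SAMD9 was 98.9, 109, and 106 CPM (log2 fold change 0.14 ± 0.12) and overlapped CTRL. SAMHD1 had a log2 fold change of −0.38, −0.40, and −0.40 on days 3, 4, and 5 of hnRNPC targeting. In CTRL cells, none of the 7 genes was called between days 3 and 5 (0.447% of all genes called higher, 0.220% lower), and BST2 had the largest value, a log2 fold change of −0.49 ± 0.08.

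ADAR+hnRNPC–targeted cells were also compared with each singly targeted group. On day 4, IFITM1 (log2 fold change 1.17 ± 0.17) and SAMD9L (1.05 ± 0.10) were higher than in ADAR-targeted cells, and IFITM2 was lower (−1.01 ± 0.10), against 2.71% of all genes called higher and 1.33% called lower. Without replicate 3 of the ADAR+hnRNPC group, the log2 fold changes of IFITM1 and SAMD9L were 0.86 and 0.88 and neither was called. The value of IFITM2 lay at the threshold, and without replicate 2 or 3 of the ADAR group or replicate 1 of the ADAR+hnRNPC group it was −0.94, −0.97, and −0.91. Against hnRNPC-targeted cells of day 4, IFITM1 (1.32 ± 0.17) and SAMD9L (1.24 ± 0.10) were higher as well (2 of 7, against 1.20% of all genes). On day 5, the 5 genes that rose against CTRL were higher than in ADAR-targeted cells (7.45% of all genes), with log2 fold changes from 1.17 (BST2) to 4.93 (IFITM1). Against hnRNPC-targeted cells, 6 of 7 were higher (5.82% of all genes), SAMD9L most after IFITM1, with 4.56 and 4.86. IFITM2 was the sixth, with a log2 fold change of 1.04 ± 0.10, and fell below the threshold without replicate 3 of either group (0.95 and 0.98). BST2, with 1.06, was not called without replicate 3 of the hnRNPC group (0.96).

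Over time in ADAR+hnRNPC–targeted cells, IFITM1 and SAMD9L rose from day 3 to day 4 (2 of 7, against 1.19% of all genes called higher), and 6 of 7 genes rose from day 4 to day 5 (3.40%). From day 4 to day 5, the log2 fold change was 4.27 ± 0.18 for IFITM1, 3.32 ± 0.18 for IFITM3, 2.89 ± 0.13 for SAMD9, 2.88 ± 0.11 for SAMD9L, 1.23 ± 0.10 for IFITM2, and 1.16 ± 0.08 for BST2. SAMHD1 was the exception, with 0.49 ± 0.06. The rise of IFITM2 started from the low values of day 4, and its level on day 5 was near that of CTRL cells.

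Whether the combined effect exceeded the sum of the single effects was tested as an interaction in 12 libraries per day. On day 4, SAMD9L exceeded the sum by 1.27 ± 0.15 on the log2 scale (adjusted p = 0.000647, 1 of 7, against 3.11% of all genes called higher by adjusted p alone), and IFITM1 had 1.02 ± 0.27 (adjusted p = 0.0535). With DESeq2, with library totals, or with no filter on low counts, 3 of 7 genes exceeded the sum on that day and 1 was below it. With a block for replicate number in edgeR, IFITM1 (0.99, adjusted p = 0.0044) and SAMD9 (0.44) exceeded the sum as well. IFITM2 (−0.50) and BST2 (−0.25) were below it with this block. On day 5, all 7 genes exceeded the sum, where 23.2% of all 13421 genes tested did so. The excess was 4.35 ± 0.15 for SAMD9L, 4.31 ± 0.22 for IFITM1, 3.37 ± 0.15 for SAMD9, 2.98 ± 0.19 for IFITM3, 0.99 ± 0.14 for BST2, 0.94 ± 0.13 for IFITM2, and 0.59 ± 0.10 for SAMHD1. In SAMHD1 and IFITM2 this excess stood beside small changes against CTRL (0.02 and 0.30) and negative values after hnRNPC targeting (−0.40 and −0.74).

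ADAR+hnRNPC targeting and IFN-α were compared directly, with 1 day of cytokine exposure in the IFN-α group. On day 4, all 7 genes were lower in ADAR+hnRNPC–targeted cells than with IFN-α (2.42% of all genes called lower), from −4.16 ± 0.18 in IFITM1 to −1.12 ± 0.07 in SAMHD1. Scaled by library totals, which moved the median of all genes by 0.189, the value of SAMHD1 was −0.93 and was not called. On day 5, a comparison that differs in day as well, SAMD9 alone was called and was higher (log2 fold change 1.23 ± 0.12, 1 of 7, against 8.80% of all genes). Its 3 libraries, 868, 1021, and 1214 CPM, exceeded the 370, 447, and 509 CPM of the IFN-α group. IFITM1 (0.10 ± 0.16, 95% confidence interval −0.20 to 0.41) and SAMD9L (0.21 ± 0.10, 0.02 to 0.41) had values near those with IFN-α. BST2 had a log2 fold change of −0.99 ± 0.08 at the edge of the threshold, and was called lower without replicate 3 of the ADAR+hnRNPC group (−1.02) or replicate 1 of the IFN-α group (−1.01). SAMD9 thus had the largest positive value of the 7 genes in this comparison, and BST2 the largest negative one.

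Study 2 examined the same loss in the wild-type clone with other gRNAs, on day 4, in total and cytosolic RNA. In total RNA, ADAR+hnRNPC targeting raised IFITM1, SAMD9, and SAMD9L (3 of 7, against 3.35% of all 13637 genes tested), and in cytosolic RNA IFITM1, IFITM3, BST2, SAMD9, and SAMD9L (5 of 7, against 6.65%). In total RNA, SAMD9L was 300 and 206 CPM beside 80.2 and 72.3 CPM in CTRL (log2 fold change 1.73 ± 0.22, n = 2 per group, adjusted p = 4.19e-05). SAMD9 was 412 and 259 CPM beside 137 and 121 CPM (log2 fold change 1.38 ± 0.22). IFITM1 was 48.2 and 22.3 CPM beside 15.4 and 10.4 CPM (log2 fold change 1.45 ± 0.37). Replicate 1 of the ADAR+hnRNPC group had the higher value for all 3 genes, and without it IFITM1 had a log2 fold change of 0.79 and was not called, nor was it without replicate 2 of CTRL (1.25, adjusted p = 0.0504). In cytosolic RNA, the groups of IFITM1 did not overlap, with 55.9 and 34.1 CPM beside 6.67 and 5.39 CPM (log2 fold change 2.90 ± 0.40, adjusted p = 3.3e-05). IFITM3 was 166 and 99.7 CPM beside 39.9 and 36.1 CPM (1.80 ± 0.30), and BST2 was 74.1 and 62 CPM beside 24.1 and 20.7 CPM (1.60 ± 0.18). SAMD9 and SAMD9L had cytosolic log2 fold changes of 1.42 ± 0.22 and 1.33 ± 0.22, close to their values in total RNA. IFITM2 and SAMHD1 were not called in either kind of RNA. SAMHD1 was 381 and 333 CPM in total RNA of ADAR+hnRNPC–targeted cells beside 529 and 418 CPM in CTRL (log2 fold change −0.41 ± 0.14).

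After ADAR targeting alone in the wild-type clone, IFITM1 (log2 fold change 1.74 ± 0.39), BST2 (1.33 ± 0.18), and IFITM3 (1.08 ± 0.29) rose in cytosolic RNA (3 of 7, against 4.61% of all genes), and none of the 7 was called in total RNA (2.04%). BST2 was 62.4 and 50 CPM in cytosolic RNA of ADAR-targeted cells, beside 24.1 and 20.7 CPM in CTRL. The calls of IFITM1 and IFITM3 were lost without replicate 1 of the ADAR group (1.37 and 0.76) and, through the adjusted p, without replicate 2 of CTRL (1.60 and 1.01), while IFITM3 was also not called without replicate 1 of CTRL (1.15). hnRNPC targeting alone gave no call in total (0.279% of all genes called higher) or cytosolic RNA (0.249%). Compared with hnRNPC-targeted cells, ADAR+hnRNPC–targeted cells had higher SAMD9L (log2 fold change 1.41 ± 0.22) and SAMD9 (1.02 ± 0.22) in total RNA (2 of 7, 3.62% of all genes), and 5 of 7 higher in cytosolic RNA (6.54%). The cytosolic values ran from 1.05 in SAMD9L to 2.54 in IFITM1. In total RNA, SAMD9 was not called without replicate 1 of the ADAR+hnRNPC group (0.64) or replicate 2 of the hnRNPC group (0.83), and IFITM1 (0.81) was called without replicate 1 of the hnRNPC group (1.30) or replicate 2 of the ADAR+hnRNPC group (1.28). In cytosolic RNA, SAMD9 and SAMD9L were not called without replicate 1 of the ADAR+hnRNPC group (0.90 and 0.82) or replicate 2 of the hnRNPC group (0.98 and 0.88). Between ADAR+hnRNPC- and ADAR-targeted cells, none of the 7 genes was called, with values near the threshold for SAMD9L (0.92 ± 0.22) and SAMD9 (0.85 ± 0.22) in total RNA and 1.15 ± 0.37 (adjusted p = 0.134) for IFITM1 in cytosolic RNA. SAMD9 and SAMD9L were called in total RNA with DESeq2 (1.02 and 1.09), with library totals (1.07 and 1.14), without replicate 1 of the ADAR group (1.05 and 1.20), or without replicate 2 of the ADAR+hnRNPC group (1.19 and 1.21).

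**Figure D3:**
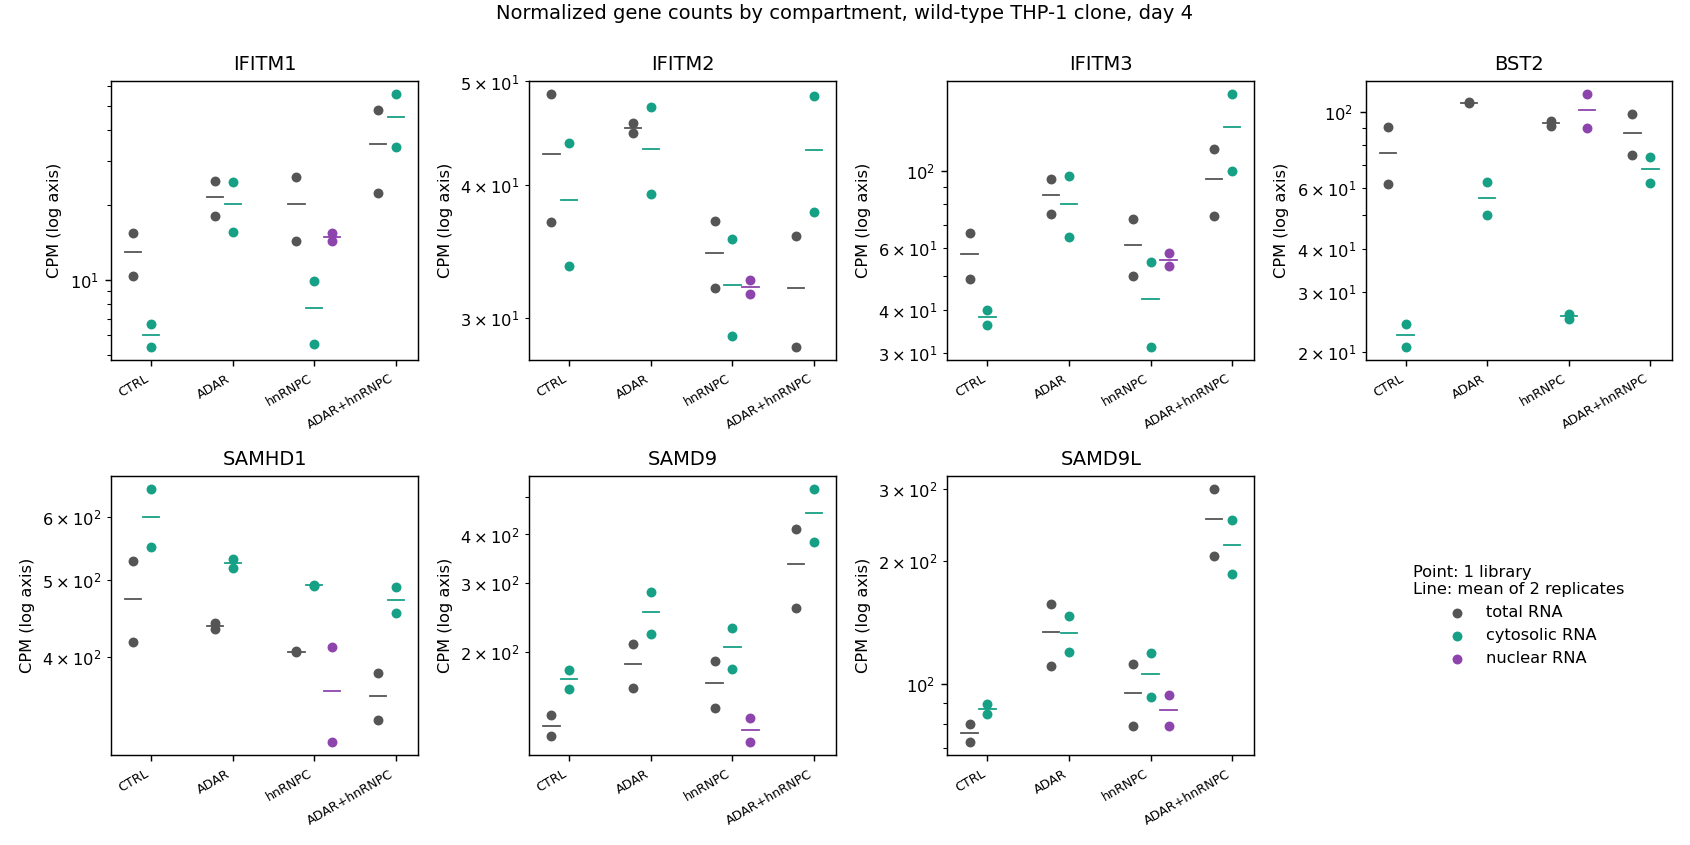
Normalized counts (CPM, log axis) of the 7 genes in each library of the wild-type clone on day 4, by gRNA group, with total RNA in grey, cytosolic RNA in green, and nuclear RNA of hnRNPC-targeted cells in purple, and short lines at the mean of 2 replicates. BST2 is lower in cytosolic (20.7 to 25.8 CPM) than in total RNA (61.8 to 94.4 CPM) of CTRL and hnRNPC-targeted cells.

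BST2 was unevenly distributed between the compartments. Averaged over the 4 gRNA groups, BST2 was lower in cytosolic than in total RNA (log2 fold change −1.23 ± 0.09, adjusted p = 3.05e-09, 8.23% of all genes called lower), and no other of the 7 was called. BST2 encodes a membrane protein made at the endoplasmic reticulum, and IFITM1, IFITM2, and IFITM3 are membrane proteins too. SAMHD1 is a nuclear protein made on free ribosomes. IFITM2 had means of 42.8 CPM in total and 38.7 CPM in cytosolic RNA of CTRL cells. Whether the site of protein synthesis bears on the distribution of these RNAs was not tested. In CTRL cells, BST2 was 90.1 and 61.8 CPM in total and 24.1 and 20.7 CPM in cytosolic RNA (log2 fold change −1.76 ± 0.18), and IFITM1 was lower as well (−1.10 ± 0.39), which made 2 of 7 (10.3% of all genes). The call of IFITM1 was lost when any of 3 of the 4 libraries was left out, with values of −0.78 to −1.26. In hnRNPC-targeted cells, BST2 was lower in cytosolic than in nuclear RNA (25.8 and 25 beside 113 and 89.8 CPM, log2 fold change −2.0 ± 0.18, 1 of 7, against 14.9% of all genes). In ADAR+hnRNPC–targeted cells, BST2 was 74.1 and 62 CPM in cytosolic and 98.9 and 74.7 CPM in total RNA and was not called (−0.35 ± 0.18). The response of BST2 to ADAR+hnRNPC targeting was accordingly larger in cytosolic than in total RNA by 1.41 ± 0.25 on the log2 scale (adjusted p = 0.00244, 1 of 7, against 4.28% of all genes called higher). The same difference was 1.45 ± 0.53 for IFITM1 (adjusted p = 0.164) and 1.09 ± 0.41 for IFITM3 (adjusted p = 0.179), and without replicate 1 of total RNA of the ADAR+hnRNPC group it was 2.11 for IFITM1 and was called. For SAMD9, SAMD9L, and SAMHD1 it was 0.04, −0.40, and 0.06. MT-CO1, a transcript inside mitochondria, was 17.1 to 37.6 CPM in cytosolic and 1521 to 2764 CPM in total RNA, and the nuclear RNA MALAT1 was 377 to 940 CPM in cytosolic, 824 to 2723 CPM in total, and 2024 to 2265 CPM in nuclear RNA. By group, cytosolic MALAT1 was 731 to 875 CPM in CTRL and 377 to 423 CPM in ADAR+hnRNPC–targeted cells. In total RNA it was 1148 to 2723 CPM and 1817 to 2219 CPM. Whether such differences between fractions bear on the values of BST2 was not tested. Levels in a compartment are relative to all RNA of that library, so a lower value is a lower share of that RNA.

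On day 5 of combined targeting, the exon counts of SAMHD1 were near CTRL (log2 fold change 0.02), while the counts of some of its introns were not. Of the 15 introns that the authors listed inside SAMHD1, 11 passed the filter, and 2 of them rose in ADAR+hnRNPC–targeted cells of day 5 (5.49% of all introns tested were called higher). Numbered from the start of transcription, these were adjacent introns, 6 and 7, at chr20:35547923-35555584 and chr20:35545453-35547766 of GRCh37. Intron 7 was 2.44 ± 0.22 CPM in CTRL and 11.5 ± 2.41 CPM in ADAR+hnRNPC–targeted cells (SD, n = 3, ranges 2.19 to 2.60 and 9.96 to 14.3 CPM), a log2 fold change of 2.24 ± 0.175 (SE, adjusted p = 2.53e-13). Intron 6 was 1.63 ± 0.30 CPM and 4.49 ± 0.73 CPM (log2 fold change 1.46 ± 0.22, adjusted p = 1.28e-06). For both introns the libraries of the groups did not overlap. The other 9 introns tested were under the fold threshold, with log2 fold changes from −0.17 to 0.90. Among them, introns 3, 4, 5, 10, and 11 had values of 0.71, 0.90, 0.46, 0.51, and 0.54, each with an adjusted p under 0.05 in the same test. The median of the 11 introns was 0.51, so the rise was not confined to introns 6 and 7. With IFN-α, intron 7 was 4.37 ± 0.61 CPM beside 2.81 ± 0.30 CPM in CTRL of day 4 (log2 fold change 0.64 ± 0.17, adjusted p = 0.0336), and no intron of SAMHD1 was called. In hnRNPC- and in ADAR-targeted cells of day 5, intron 7 had log2 fold changes of −0.01 and 0.08. The values of intron 7 were thus high in the 3 libraries of ADAR+hnRNPC–targeted cells of day 5, the same libraries in which SAMHD1 exon counts were at the level of CTRL.

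**Figure D4:**
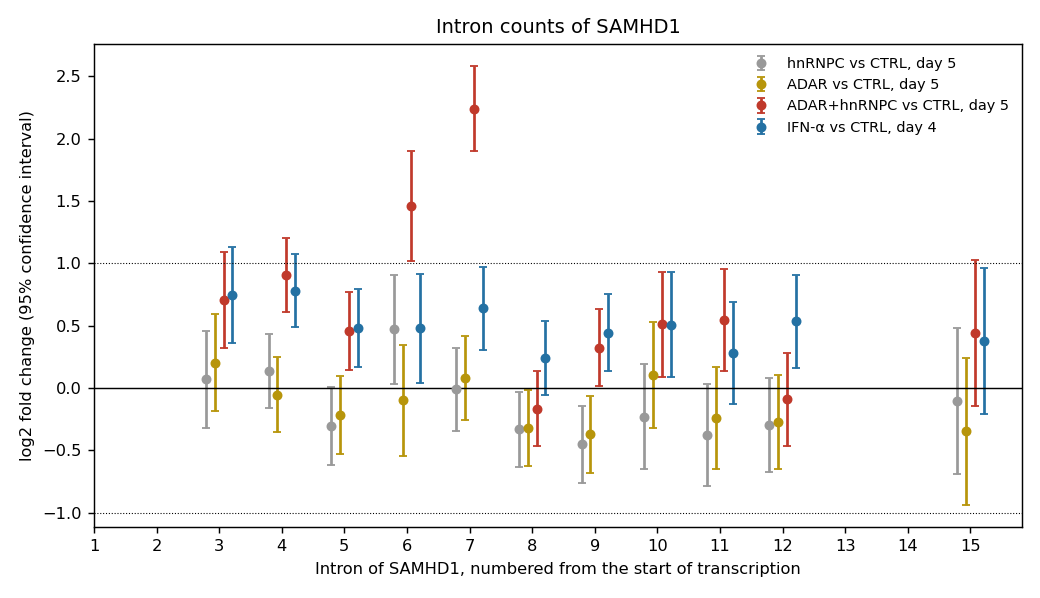
Log2 fold changes of intron counts of SAMHD1 against CTRL of the same day (points) with 95% confidence intervals (bars), for the 11 tested of 15 introns numbered from the start of transcription, with dotted lines at −1 and 1. Introns 6 and 7 reach 1.46 and 2.24 with combined targeting on day 5 (red) and stay under 1 with IFN-α (blue) and with either single targeting on day 5.

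In IFITM3 and SAMD9L, the tested intron rose with the gene. The tested intron of IFITM3, at chr11:319991-320564, changed by 4.69 ± 0.29 on the log2 scale with combined targeting on day 5 and by 3.78 ± 0.28 with IFN-α (0.821% of all introns called higher with IFN-α). That of SAMD9L, at chr7:92765305-92774044, had 3.94 ± 0.28 and 3.52 ± 0.28. On day 5, the exon-based log2 fold changes of these genes were 3.34 and 3.86. The IFITM3 intron averaged 13.9 CPM with combined targeting on day 5, 9.12 CPM with IFN-α, and at most 1.3 CPM in every other group. It thus passed the filter through the groups in which it was high. Of 3 introns listed inside IFITM3 and 5 inside SAMD9L, 1 each was tested. An untested IFITM3 intron, chr11:321341-327250, was 0.583 CPM in CTRL and 2.79 CPM with combined targeting on day 5. It was 0.442 CPM in CTRL of day 4 and 0.811 CPM with IFN-α. No intron of IFITM1, IFITM2, BST2, or SAMD9 passed the filter.

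SAMHD1 was the only one of the 7 genes with listed A-to-I editing sites, the base change that ADAR makes in double-stranded RNA. In study 1, 247 sites inside the gene were used, 235 of them in introns, and 8 more were left out because a value was empty in some library. Over these sites, 4.27 ± 0.39% of the reads were edited in CTRL cells of day 4 (SD, n = 3) and 2.37 ± 0.55% with combined targeting. The single libraries were 3.87, 4.32, and 4.64% in CTRL, 1.32, 2.55, and 2.02% in ADAR-targeted, and 2.82, 1.76, and 2.54% in ADAR+hnRNPC–targeted cells, so that neither group overlapped CTRL. The 95% Wilson interval of the library with the fewest reads of these 9 (27 of 1057 edited) ran from 1.76 to 3.69% and covers counting error only. On day 5, the share was 3.76 ± 0.73% in CTRL, 1.67 ± 0.32% in ADAR-targeted, 2.69 ± 0.24% in ADAR+hnRNPC–targeted, and 5.33 ± 1.36% in hnRNPC-targeted cells. The exact permutation test (two-sided) gave p = 0.1 for ADAR and for ADAR+hnRNPC targeting on both days, the smallest p that 3 against 3 libraries allow, and p = 0.2 for hnRNPC targeting on day 5. With IFN-α, 5.92 ± 1.76% were edited (exact permutation p = 0.2). In study 2, 105 sites in total RNA gave 6.18 and 5.74% in CTRL, 2.94 and 2.59% in ADAR-targeted, and 1.68 and 1.79% in ADAR+hnRNPC–targeted cells. The cytosolic shares were 10.6 and 11.2%, 2.92 and 3.20%, and 6.03 and 4.07%. With 2 against 2 libraries the exact test cannot go below 0.333. Editing in SAMHD1 RNA therefore had lower values in ADAR-targeted cells of both clones. Over all 441306 sites used in study 1, the libraries of day 4 had 3.58 to 3.86% of reads edited in CTRL, 1.47 to 1.67% in ADAR-targeted, and 1.82 to 1.98% in ADAR+hnRNPC–targeted cells, and 5.42 to 7.04% with IFN-α.

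**Figure D5:**
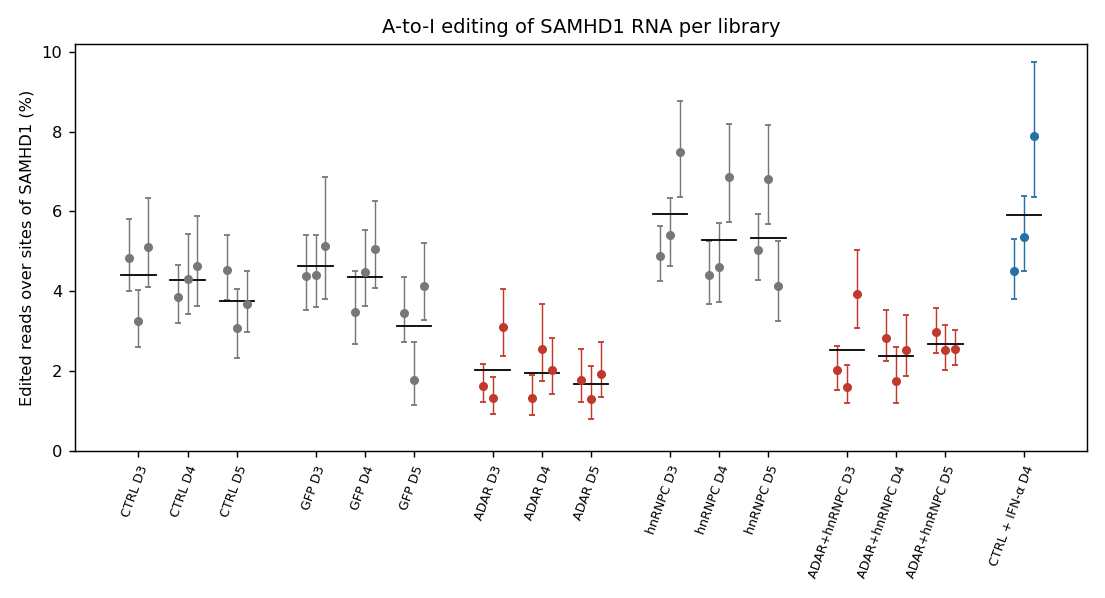
Percent of edited reads over 247 sites of SAMHD1 in each library of study 1 (points) with 95% Wilson intervals (bars) and a black line at the mean of 3 replicates, by group and day. ADAR- and ADAR+hnRNPC–targeted cells (red) have group means of 1.67 to 2.69%, and CTRL cells of 3.76 to 4.40%.

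An editing cluster region holds 1 or more nearby clusters of editing sites and the bases flanking them. The one at the 3′ end of SAMHD1, chr20:35517825-35519841, had enough counts to be tested. Its log2 fold changes were −0.71 ± 0.07 on day 4 of combined targeting and 0.46 with IFN-α. This region overlaps exon sequence of SAMHD1, so its counts hold exon reads and are not independent of the gene counts. It was not called in any comparison against CTRL. A second region, chr20:35541254-35543356, did not pass the filter.

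The 7 genes did not move as 1 group. Over the 16 group means of study 1, Pearson's r of log2 CPM was 0.99 between IFITM1 and IFITM3, 0.97 between IFITM1 and SAMD9, and 0.95 between SAMD9 and SAMD9L. It was 0.62 between the neighbouring genes IFITM1 and IFITM2 and 0.21 between IFITM1 and SAMHD1. These r values describe groups that share days and controls. Among all other genes tested, the most alike by the same measure were UBE2L6 (r = 0.99) for IFITM1, LY6E (0.99) for IFITM3, IFIH1 (0.99) for SAMD9, MX2 (0.99) for SAMD9L, and PSME2 (0.97) for BST2. TMEM219 was the most alike for IFITM2 (0.95) and MRPL17 for SAMHD1 (0.91). By rank (Spearman's r), the most alike stayed PSME2 for BST2 (0.91) and TMEM219 for IFITM2 (0.97). For the others it became IFI44 for IFITM1 (0.985), OAS3 for IFITM3 (0.95), WASHC4 for SAMD9 (0.97), TTC39B for SAMD9L (0.93), and NSUN2 for SAMHD1 (0.96). MX2 and SAMD9L had 0.71 by rank.

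Related genes gave the setting of these changes. Of 33 other antiviral restriction factors tested, 20 rose with IFN-α (1.21% of all genes called higher), and 15 and 25 rose in ADAR+hnRNPC–targeted cells on days 4 and 5 (3.40% and 9.38%), with none lower in these comparisons. Their median log2 fold change on day 5 was 3.15, beside 3.34 for the 7 genes and −0.04 for all genes. IFIT1, which binds foreign RNA caps, led this list (log2 fold change 10.22 ± 0.38), followed by IFIT2 (9.64) and MX1 (8.55). On day 4, the log2 fold change of IFIT1 was already 5.33, beside 1.48 for IFITM1. In hnRNPC-targeted cells of day 5, 7 of these 33 genes rose and 0 fell (3.96% of all genes called higher and 3.75% lower), among them GBP2 (2.39) and TRIM22 (1.56). Of 13 genes of the type I IFN receptor and ISGF3 pathway, 5 rose with IFN-α (1.21% of all genes) and 8 on day 5 of combined targeting (9.38%), among them the feedback inhibitor USP18 (6.27) and the transcription factor IRF7 (5.33).

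SAMHD1 degrades the dNTPs that ribonucleotide reductase and its partners supply. Of 17 genes of dNTP supply, 2 fell in ADAR+hnRNPC–targeted cells of day 5, beside 6.23% of all genes called lower. They were RRM2 (−1.19 ± 0.06), a subunit of ribonucleotide reductase, and DUT (−1.12 ± 0.07), which removes dUTP, and none of the 17 was called with IFN-α. Of 9 tested regulators of SAMHD1, 1 was called higher in hnRNPC-targeted cells of day 5 (3.96% of all genes called higher). The same gene was called higher with combined targeting on day 5 (1 of 9, against 9.38%) and with IFN-α (1.21%). It was CDKN1A, an inhibitor of the kinases that phosphorylate SAMHD1, with log2 fold changes of 2.66 ± 0.21, 2.60 ± 0.21, and 1.04 ± 0.20. SKP2, a ubiquitin ligase subunit, fell in ADAR+hnRNPC–targeted cells of day 5 (−1.45 ± 0.07, 1 of 9, against 6.23% of all genes called lower). On day 5 of combined targeting, 1 of 9 in either direction was near the share over all genes. In hnRNPC-targeted cells of day 5, 1 of 8 tested partners and relatives of IFITM proteins and BST2 was called higher and 1 lower. Over all genes, 3.96% were called higher and 3.75% lower. With combined targeting on day 5 the same genes were called, beside 9.38% and 6.23% of all genes. IFITM10 rose by 2.96 and 1.97 on the log2 scale in these groups. The tetraspanin CD9 fell in both groups (−1.51 ± 0.20 and −1.93 ± 0.20), and none of the 8 was called with IFN-α.

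Some counts of the 7 genes may hold reads of other transcripts. Exons of other annotated genes covered 31.6% of the exon bases of IFITM1, 16.3% of IFITM3, 9.86% of SAMHD1, where TLDC2 lies on the opposite strand, and 2.18% of IFITM2, and the sources used here do not state whether strand was used in counting. Of all 100-base windows in IFITM3 transcripts, 7.18% were identical in IFITM1, the largest share among the IFITM genes, and 0% were shared by SAMD9 and SAMD9L. Uniquely mapped reads alone were counted, and the effect of such windows on the counts was not tested.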

How the data were processed

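Total, cytosolic, and nuclear RNA of THP-1 cells was sequenced by the authors after ribosomal RNA depletion with a stranded kit. The deposited values are raw counts per gene, intron, editing cluster region, and editing site: the authors aligned reads with STAR 2.5.4a to GRCh37 and counted uniquely mapped reads with featureCounts on GENCODE exons. Whether counting used strand is not given in the sources used here. Tables of 57820 genes (55538 with a symbol) held 48 libraries in study 1 and 18 in study 2, of 95107690 to 152829008 and 49666958 to 73873756 counts. No 2 libraries of the same group agreed within sampling noise, and pairs across groups were not checked.

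Genes of an average log2 CPM of at least 0.5 (13187 and 13637 genes), introns of at least 1 (21798), and editing cluster regions of at least 4.5 were tested. The quasi-likelihood test of edgeR 4.0.16 in R 4.3.3 was used with TMM-scaled totals. All libraries of a study were in a fit, apart from the interaction of study 1 (12 libraries per day). P-values were adjusted by Benjamini-Hochberg over all features tested. Features were called at an adjusted p of at most 0.05 where the log2 fold change also reached 1 in either direction, and differences of differences at the adjusted p alone. Standard errors were the log2 fold change divided by the square root of F. RPKM used the union of annotated exons, from a later annotation release than the one used for counting. Editing was the share of edited reads summed over the sites of a gene, compared by an exact permutation test. Scripts were tested on simulated data. Alternatives were DESeq2 1.42.0, limma-voom (limma 3.58.1), other scalings and filters, GFP-targeted cells as control, groups alone, a replicate block, and leaving out each library.

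The 7 genes, the lists (other restriction factors, type I IFN receptor and ISGF3, dNTP supply, SAMHD1 regulators, IFITM and BST2 partners, markers of cell types), and the tests were chosen with earlier results of these data known. From each list at most 3 genes per comparison were named, those with the largest change among the called ones, and for each of the 7 genes those most alike over 16 group means; CD33, SPI1, CD14, and NCAM1 were named as markers after their values were seen. Some items are not reported here. Replicates were separate experiments as the study describes them, and groups came from the sample labels.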

Additional observations from a re-analysis of the deposited data

Results flagged for a closer look

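The effect of combined targeting differed from the sum of the effects of ADAR and hnRNPC targeting alone in 8 results of study 1, each by the interaction test in 12 libraries with adjusted p-values over all genes from edgeR. On day 4, the difference was 1.27 on the log2 scale for SAMD9L. On day 5, it was 4.31 for IFITM1, 0.94 for IFITM2, 2.98 for IFITM3, 0.99 for BST2, 0.59 for SAMHD1, 3.37 for SAMD9, and 4.35 for SAMD9L, where 23.2% of all genes tested passed. In study 2, the response of BST2 to ADAR+hnRNPC targeting differed between cytosolic and total RNA by 1.41 on the log2 scale (adjusted p = 0.00244). With 2 or 3 replicates per group, no group was large enough to test for a single library far from the others.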

How the results depend on the processing

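No result changed direction with its call under any of the alternatives run. With library totals in place of TMM, the median of all genes shifted by more than 0.1 on the log2 scale in comparisons with ADAR+hnRNPC–targeted cells (0.118 and 0.109 against CTRL on days 4 and 5, 0.213 and 0.151 in total and cytosolic RNA). The calls of IFITM1, IFITM3, BST2, SAMD9, and SAMD9L against CTRL on day 5 and with IFN-α held under each alternative.

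Counts of the 7 genes called moved by more than 1.5 times as follows, and the cause was not tested. For ADAR+hnRNPC against CTRL on day 4, 1 gene in place of 2 was higher with limma-voom and with the groups alone. Against ADAR on day 4, 0 in place of 1 was lower with DESeq2 and with library totals. The interaction on day 4 had 3 genes higher with DESeq2, library totals, no filter, or the replicate block and 2 in the model of all libraries, in place of 1, and 1 lower (2 with the replicate block) in place of 0. In study 2, ADAR+hnRNPC against ADAR in total RNA had 2 higher with DESeq2 and library totals and 1 with the groups alone, and in cytosolic RNA 1 with the groups alone, no filter, or the replicate block, in place of 0. Against hnRNPC in total RNA, 1 in place of 2 was higher with limma-voom. The response difference between cytosolic and total RNA had 3 genes in place of 1 with no filter and with the replicate block. For cytosolic against nuclear RNA, 2 in place of 1 were lower with DESeq2, library totals, limma-voom, and the replicate block. For cytosolic against total RNA, 1 in place of 0 was lower in ADAR-targeted cells with library totals, and 1 in place of 2 in CTRL with limma-voom. The interaction in total RNA had 1 higher and 1 lower with no filter and 1 lower with the replicate block, in place of 0. With no filter, 20 introns inside the 7 genes in place of 4 were higher in ADAR+hnRNPC–targeted cells of day 5, 15 in place of 2 with IFN-α, and 2 in place of 0 in hnRNPC-targeted cells.

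When each library was left out in turn, the counts higher ranged from 1 to 2 for ADAR+hnRNPC against CTRL on day 4, 0 to 2 against ADAR on day 4 (0 to 1 lower), 4 to 6 against hnRNPC on day 5, and 1 to 3 for the interaction on day 4 (0 to 1 lower), and 0 to 1 was lower against IFN-α on day 5. In study 2, they ranged from 2 to 3 for ADAR+hnRNPC against CTRL, 0 to 2 against ADAR, 1 to 3 against hnRNPC, 0 to 1 for ADAR against CTRL (all in total RNA), 3 to 5 against hnRNPC and 1 to 3 for ADAR against CTRL in cytosolic RNA, and 1 to 2 for the response difference. Counts lower ranged from 0 to 1 for the interaction in total RNA, 1 to 2 for cytosolic against nuclear RNA, and 1 to 2, 1 to 2, and 0 to 1 for cytosolic against total RNA of CTRL, hnRNPC-, and ADAR-targeted cells.

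Same-numbered libraries deviated together in part. In study 1, r was −0.217 to 0.748 (over 0.1 in 64 of 90 pairs, 40 of 48 libraries closest to their own number). In study 2, r was −0.337 to 0.445 (over 0.1 in 20 of 29 pairs of groups, 16 of 18 libraries). With 2 libraries per group, both numbers give the same r there. Not every same-numbered pair exceeded 0.1, so the numbers were not treated as pairs. The replicate block changed 9 of 343 calls, all toward significance. No editing site of SAMHD1 had 10 reads in every library, so that alternative gave no value, and a few reads per site limit editing to sums over sites.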
